A study of Mus musculus with 12 samples.

Results

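The 8 genes of glucose uptake and glycolysis that exist in liver and in fetal or tumor forms were followed in mouse liver and liver tumors with and without Setd2, the methyltransferase that places trimethylation on lysine 36 of histone H3. The genes were Slc2a1, Hk1, Hk2, Pfkl, Pfkp, Aldoa, Pklr and Ldha, chosen by name, and all 8 were found among the 24553 entries of the expression tables. Poly(A) RNA was sequenced in 12 libraries, 3 in each of 4 groups. WT liver was normal liver of 8-month-old male wild-type mice, and KO liver was the same tissue of Setd2 knockout mice; neither received a carcinogen. WT tumor and KO tumor were liver tumors taken at 8 months from wild-type and Setd2 knockout males that had been given 1 dose of diethylnitrosamine (DEN), a liver carcinogen, at 25 mg/kg into the peritoneum at 2 weeks of age. Library names carry the tag cKO, but which Cre driver was used and which cells lost Setd2 was not given in the sources used here. The comparison of tumor with normal liver therefore joins DEN exposure and tumor growth, which cannot be told apart in these groups.

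Glycolysis splits glucose into pyruvate, and several of its steps have more than 1 isozyme, that is, an enzyme of the same reaction made from another gene. Hepatocytes typically use the glucose transporter Slc2a2, the liver phosphofructokinase Pfkl and the liver pyruvate kinase made from Pklr, a set fitted to taking up or releasing glucose as blood glucose changes. Fetal liver, many other tissues and many tumors rely more on Slc2a1, the hexokinases Hk1 and Hk2, Pfkp, Aldoa and Pkm. The lactate dehydrogenase subunit made from Ldha is common to liver, muscle and tumors.

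The promoter sequences of 5 genes are shown because the genes behind them carry the differences described further on: Slc2a1, Hk2 and Pfkp were at their highest in KO tumors, Pklr in KO liver, and Ldha was highest in WT liver. Each is the 250 bases before a RefSeq start site in GRCm38.p6, written 5′ to 3′ on the gene's own strand. Capitals mark ACGTG on either strand (read as CACGT on the other strand), a core bound by hypoxia-inducible and E-box factors. Variants of that core with another letter were not searched for or marked. In Pklr, capitals mark instead the boxes CACGNG and CNCGTG with 5 bases between them, the form of a carbohydrate response element, together with those 5 bases.
Slc2a1: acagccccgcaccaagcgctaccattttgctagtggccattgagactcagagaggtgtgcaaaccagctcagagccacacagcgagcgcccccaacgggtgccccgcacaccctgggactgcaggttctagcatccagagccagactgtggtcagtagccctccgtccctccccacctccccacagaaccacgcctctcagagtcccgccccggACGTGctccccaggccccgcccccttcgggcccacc
Hk2: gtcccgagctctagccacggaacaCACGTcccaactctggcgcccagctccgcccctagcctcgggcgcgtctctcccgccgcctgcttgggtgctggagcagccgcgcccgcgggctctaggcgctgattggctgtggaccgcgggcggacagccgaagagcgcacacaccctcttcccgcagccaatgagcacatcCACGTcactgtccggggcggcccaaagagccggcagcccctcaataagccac
Pfkp: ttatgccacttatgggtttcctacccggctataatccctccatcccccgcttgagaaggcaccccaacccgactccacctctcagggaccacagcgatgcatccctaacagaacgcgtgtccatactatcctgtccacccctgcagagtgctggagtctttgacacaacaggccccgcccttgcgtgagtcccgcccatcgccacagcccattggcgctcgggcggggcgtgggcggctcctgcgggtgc
Pklr: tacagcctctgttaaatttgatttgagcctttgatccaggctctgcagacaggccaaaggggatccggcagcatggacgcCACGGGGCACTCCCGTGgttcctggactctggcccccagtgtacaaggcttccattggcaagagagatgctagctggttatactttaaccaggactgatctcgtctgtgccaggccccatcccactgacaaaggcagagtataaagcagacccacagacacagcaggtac
Ldha: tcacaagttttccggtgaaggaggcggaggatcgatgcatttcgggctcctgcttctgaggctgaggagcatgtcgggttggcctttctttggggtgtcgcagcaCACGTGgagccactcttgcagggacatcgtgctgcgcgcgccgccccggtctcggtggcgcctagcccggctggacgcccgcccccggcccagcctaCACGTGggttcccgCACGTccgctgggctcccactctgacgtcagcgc
These windows lie at chr4:119108495-119108744 (plus strand, Slc2a1), chr6:82774455-82774704 (minus strand, Hk2), chr13:6648772-6649021 (minus strand, Pfkp), chr3:89136373-89136622 (plus strand, the downstream of 2 Pklr starts) and chr7:46845554-46845803 (plus strand, Ldha). The Pklr and Ldha windows fall wholly inside the GENCODE span of their gene, because both genes also have a start further upstream. The Slc2a1 and Pfkp windows overlap theirs in part, from 119108711 on for Slc2a1 and up to 6648777 for Pfkp. The ACGTG marked in Slc2a1 lies across that GENCODE start. ACGTG was present in a window of 4 of the 8 genes, namely Slc2a1, Hk2, Aldoa and Ldha. By window, it was in 5 of the 13 windows of the 8 genes and in 16.6% of all 32851 promoter windows of this length. The matching Aldoa windows overlap and hold the same ACGTG, which is thus counted more than once. A share by gene over all genes was not worked out. Another Ldha window, at chr7:46846832-46847081, held no ACGTG. The Ldha window shown held ACGTG most often, 5 times counted on both strands, and 4 of these form 2 overlapping pairs, each a CACGTG. That longer palindrome occurred in 6.02% of all windows. The paired boxes of Pklr, whose first base is at -170 from the start, were found in 13 of the 32851 windows (0.0396%). No ACGTG was in the Pfkp window, which says only that these letters are not in those 250 bases.

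Expression was given as FPKM (fragments scaled to transcript length and to the mapped fragments of the library), a level per length that allows genes to be set side by side; the depth behind it is unknown. Changes were tested on log2(FPKM + 1), a scale that understates the change of genes near or below 1 FPKM, in the 11671 entries that reached 1 FPKM in at least 3 of the 12 libraries. A gene is called changed at an adjusted p below 0.05 (limma, Benjamini-Hochberg over all 11671, two-sided). Setd2 itself was listed at 3.84 to 4.84 FPKM in WT liver, 1.32 to 1.93 in KO liver, 3.61 to 4.40 in WT tumors and 1.90 to 3.14 in KO tumors, so it was lower in every KO library than in every WT library of the same tissue. The sum of all FPKM in a library ran from 423498 (KO tumor 1) to 719538 (KO liver 1). Replicates of KO tumor were the least alike, with pairwise correlations of 0.92 to 0.94 and a median SD of 0.31 on the log2 scale. In the other groups that SD was 0.16 to 0.19. Of the 7 listed hepatocyte markers (Apoa1, Apoa2, Ttr, Hnf4a, Serpina1c, Cps1 and Asgr1), none was at 0, and their summed level was 37121 to 47263 FPKM in the 9 libraries other than KO tumor and 21893 to 36621 in KO tumors. Apoa1 carries much of that sum and rose 2.36-fold in WT tumors over WT liver, while the other 6 markers were lower there, with Cps1 and Hnf4a called at 0.463 and 0.532 of the WT liver level. In bulk tissue, fewer cells of a type and less RNA per cell cannot be told apart.

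Of the 8 genes, 7 reached 1 FPKM in at least 7 libraries. Hk2 reached it only in the 3 KO tumors, so it entered the test only through the group where it is high. Pfkp reached it in 7 libraries, and Hk1, Pfkl, Aldoa, Pklr, Ldha and Slc2a1 in all 12. By mean level in WT liver the order was Ldha (707 FPKM), Aldoa (120), Pklr (65.9), Pfkl (8.88), Slc2a1 (2.69), Hk1 (1.57), Pfkp (0.675) and Hk2 (0.417).

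Slc2a1 encodes GLUT1, the basal glucose transporter of most cells other than hepatocytes; the gene lies on chromosome 4 at 119108711 to 119137983 (GRCm38). It was listed at 3.36, 2.23 and 2.48 FPKM in WT liver 1, 2 and 3. KO liver had 4.24, 7.40 and 5.002. WT tumors had 6.14, 5.53 and 5.23. KO tumors had 12.7, 16.3 and 10.7 FPKM, above each of the other 9 libraries. By group the order was WT liver (2.69 ± 0.591, SD, n = 3), KO liver (5.55 ± 1.65), WT tumor (5.63 ± 0.46) and KO tumor (13.2 ± 2.84), and the middle pair overlapped.

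Slc2a1 was higher in KO liver than in WT liver by 0.81 ± 0.21 on the log2 scale (SE, adjusted p = 0.0407, limma), 1.75-fold, and it was the only member called there. Of all tested entries, 9.33% were called higher and 8.77% lower in that comparison. The call was lost without WT liver 1, 2 or 3 (adjusted p = 0.0515, 0.105 and 0.125) and without KO liver 2 or 3 (0.0864 and 0.0865), and with a common FPKM sum per library (0.0609). In WT tumors it exceeded WT liver by 0.85 ± 0.15 (adjusted p = 0.0139, limma), 1.81-fold, against a background of 8.01% of entries called higher and 8.96% called lower. Without WT liver 3 the adjusted p was 0.0604. KO tumors exceeded KO liver by 1.13 ± 0.24 (adjusted p = 0.0266, limma), 2.19-fold, where 9.09% of entries were called higher and 5.17% lower. That call was lost without KO liver 1, 2 or 3 (0.0949, 0.0603 and 0.101) and without KO tumor 1 or 2 (0.0725 and 0.0579). Between the tumor genotypes the difference was 1.08 ± 0.19 (2.12-fold), which did not pass (adjusted p = 0.0748, limma), although all 3 KO tumors lay above all 3 WT tumors. The knockout effect did not differ detectably between tumor and liver (0.27 ± 0.28, adjusted p = 0.602, limma).

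**Figure D1:**
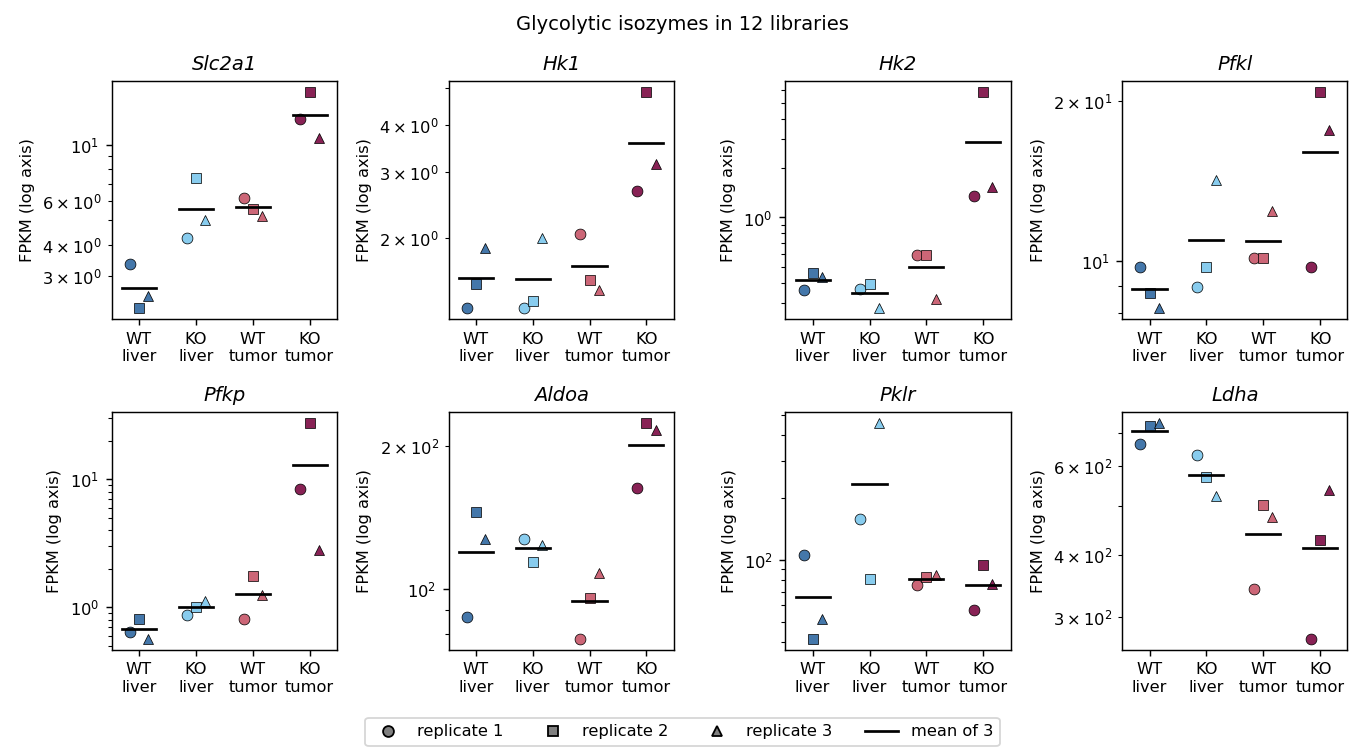
FPKM (log axis) of the 8 genes in each of the 12 libraries, by group; marker shape gives the replicate number and the bar the mean of 3. Slc2a1, Hk1, Hk2, Pfkp and Aldoa have all 3 KO tumors above every WT tumor, KO tumor 2 is the highest library for 6 of the 8 genes, and Pklr reaches 461 FPKM in KO liver 3.

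Its hepatocyte counterpart Slc2a2, the bidirectional liver transporter, was listed at 126, 70.1 and 94.2 FPKM in WT liver and at 51.4, 50.4 and 39.9 in WT tumors, a fall of the log2 level by 0.99 ± 0.22 (adjusted p = 0.0274, limma). KO tumors had 86.9, 30.7 and 84.6 FPKM, on both sides of the WT tumors. As a share of the summed FPKM of both transporters, Slc2a1 made up 2.57% to 3.09% in WT liver, 4.71% to 11.03% in KO liver, 9.88% to 11.6% in WT tumors and 11.2% to 34.7% in KO tumors. The highest share belonged to KO tumor 2, where Slc2a2 was lowest. Slc2a3, the high-affinity transporter of neurons and leukocytes, stayed below 1 FPKM in all 12 libraries.

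Hexokinases phosphorylate glucose and so trap it in the cell. Hk1, the widely expressed form (chromosome 10, 62268855 to 62379908), had 1.31, 1.52 and 1.88 FPKM in WT liver and 1.31, 1.36 and 2.00 in KO liver. It had 2.05, 1.55 and 1.46 in WT tumors and 2.67, 4.89 and 3.16 in KO tumors. The first 3 groups overlapped, and the KO tumors lay above all of them. The difference between KO and WT tumors was 0.74 ± 0.22 on the log2 scale (adjusted p = 0.162, limma), and that between KO tumors and KO liver was 0.82 ± 0.22 (adjusted p = 0.0519, limma); neither passed.

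Hk2, the isozyme of muscle, fat and many tumors (chromosome 6, 82725025 to 82774454), was listed at 0.359, 0.458 and 0.435 FPKM in WT liver and at 0.368, 0.393 and 0.280 in KO liver. WT tumors had 0.592, 0.589 and 0.320. KO tumors had 1.35, 5.83 and 1.53 FPKM, every one above the other 9 libraries and KO tumor 2 far above the other 2. The difference between tumors was 1.202 ± 0.41 on the log2 scale (adjusted p = 0.203, limma) and, without KO tumor 2, 0.71 (adjusted p = 0.212, limma). Against KO liver it was 1.35 ± 0.40 (adjusted p = 0.0616, limma).

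Of the other hexokinases, Hk3, the leukocyte form, lay at 0.506 to 4.27 FPKM and passed in no comparison, and Hkdc1 stayed below 1 FPKM throughout.

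Phosphofructokinase adds the second phosphate and is the main regulated step of the pathway. Pfkl, the liver form (chromosome 10, 77986947 to 78010083), had 9.75, 8.72 and 8.16 FPKM in WT liver, 8.93, 9.77 and 14.2 in KO liver, 10.1, 10.1 and 12.4 in WT tumors and 9.77, 20.8 and 17.6 in KO tumors. WT tumors lay just above WT liver without passing (0.27 ± 0.13, adjusted p = 0.189, limma), and KO tumors overlapped both neighbours.

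Pfkp, the platelet form that is common in proliferating cells (chromosome 13, 6579768 to 6648777), had the widest range of the 8 genes as a ratio of highest to lowest library. It had 0.643, 0.813 and 0.568 FPKM in WT liver, 0.879, 1.002 and 1.13 in KO liver and 0.814, 1.77 and 1.26 in WT tumors. KO tumors had 8.42, 27.7 and 2.81 FPKM. Every KO tumor exceeded every other library, but the 3 differed widely among themselves (13.0 ± 13.1, SD). The difference from WT tumors was 2.17 ± 0.67 on the log2 scale, 4.49-fold, and did not pass (adjusted p = 0.173, limma). It was 1.41 without KO tumor 2 and 2.87 without KO tumor 3 (adjusted p = 0.242 and 0.0506). Against KO liver it was 2.34 ± 0.64, 5.05-fold (adjusted p = 0.0529, limma). All 3 KO livers also lay above all 3 WT livers, by 0.26 ± 0.11 (adjusted p = 0.122, limma).

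Pfkp made up 6.19% to 8.53% of the summed FPKM of Pfkp and Pfkl in WT liver, 7.34% to 9.31% in KO liver and 7.43% to 14.9% in WT tumors. In KO tumors the share was 46.3%, 57.1% and 13.8%, so 2 of the 3 had near equal levels of both forms and KO tumor 3 lay just below the highest WT tumor. Pfkm, the muscle form, was listed at 2.11 to 7.35 FPKM over all libraries and passed in no comparison.

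**Figure D2:**
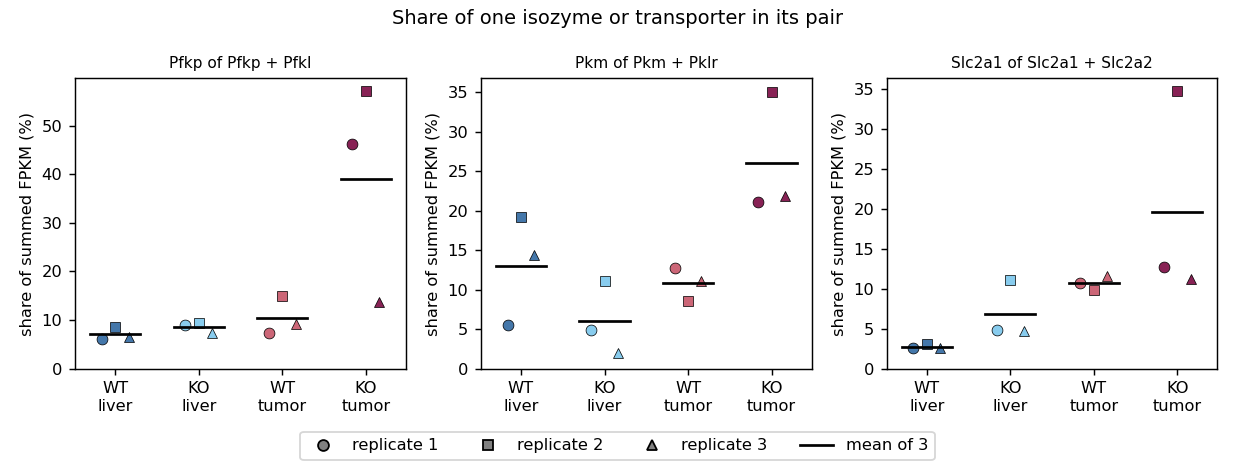
Share (percent of the summed FPKM) of 1 isozyme or transporter in its pair in each of the 12 libraries, with the mean of 3 as a bar. KO tumors reach the highest share in all 3 panels, but in the Pfkp and Slc2a1 panels at least 1 KO tumor lies within the range of the WT tumors.

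Aldolase cleaves the doubly phosphorylated sugar. Aldoa, the form of muscle and most tissues (chromosome 7, 126795234 to 126800751; a second GENCODE gene of the same name lies at 126800790 to 126809108), had 87.1, 145 and 127 FPKM in WT liver and 128, 114 and 124 in KO liver. WT tumors had 78.3, 95.6 and 108, overlapping WT liver. KO tumors had 163, 224 and 216 FPKM, above all other libraries. The difference between tumors was 1.09 ± 0.23 on the log2 scale, 2.12-fold (adjusted p = 0.0930, limma), and that between KO tumors and KO liver 0.71 ± 0.21 (adjusted p = 0.0643, limma). The knockout effect was larger in tumor than in liver by 1.03 ± 0.30, which did not pass either (adjusted p = 0.0847, limma).

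Aldoc, the brain form, was listed at 3.02 to 8.85 FPKM and passed in no comparison.

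Pyruvate kinase makes pyruvate and ATP in the last step. Pklr, the liver and red cell form (chromosome 3, 89136142 to 89146784), had 105, 41.3 and 51.4 FPKM in WT liver and 158, 80.8 and 461 in KO liver. Tumors were close together, at 75.4, 82.6 and 84.6 in WT and 57.0, 93.7 and 76.5 in KO. KO liver had the highest mean (233 ± 201, SD), with replicate 3 far above the others, and KO liver 2 lay below WT liver 1. The difference between the livers was 1.56 ± 0.62 on the log2 scale (adjusted p = 0.116, limma), and 0.89 without KO liver 3 (adjusted p = 0.232). KO tumors lay lower than KO liver by -1.27 ± 0.59, with overlapping groups (adjusted p = 0.177, limma), and by -0.60 without KO liver 3 (adjusted p = 0.367).

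KO liver 3 was also the highest of the 12 libraries for Eno1 (548 FPKM), a later glycolytic enzyme, and for the lipogenic transcription factor gene Srebf1 (117 FPKM). Pkm, which gives the M1 and M2 pyruvate kinases of muscle and tumors (the tables do not separate the 2), was listed at 6.11 to 9.86 FPKM in WT liver, 8.10 to 10.1 in KO liver and 7.77 to 10.996 in WT tumors. KO tumors had 15.3, 50.7 and 21.5 FPKM, above all other libraries. The difference between tumors was 1.32 ± 0.42 (adjusted p = 0.180, limma) and between KO tumors and KO liver 1.40 ± 0.40 (adjusted p = 0.0580, limma). Its share of the summed Pkm and Pklr FPKM was 21.1% to 35.1% in KO tumors and 8.60% to 12.7% in WT tumors, with WT liver spread from 5.50% to 19.3%.

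Lactate dehydrogenase turns pyruvate into lactate and back. Ldha (chromosome 7, 46841475 to 46855627), the subunit common to liver, muscle and tumors, had 664, 724 and 734 FPKM in WT liver and 634, 573 and 523 in KO liver. It had 342, 503 and 475 in WT tumors and 271, 428 and 539 in KO tumors. Every library of the other 3 groups lay below every WT liver. WT tumors fell below WT liver by 0.70 ± 0.18 on the log2 scale (adjusted p = 0.0408, limma), to 0.615 of its level. The call was lost without WT liver 1, 2 or 3 (adjusted p = 0.0830, 0.112 and 0.138), without WT tumor 2 or 3 (0.0582 and 0.0681), and under a common FPKM sum, where the change was -0.40 (0.0796). Without the filter, with quantile normalization, in the 12-library fit and with the replicate block the adjusted p was 0.0819, 0.117, 0.0994 and 0.0543. KO liver was lower than WT liver by -0.30 ± 0.12 (adjusted p = 0.120, limma), and the tumor groups overlapped (-0.13 ± 0.33, 95% interval -0.90 to 0.65). Ldhb, the heart-type subunit, was at 0.802 to 2.39 FPKM, so Ldha made up 99.4% to 99.9% of the pair in every library.

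Across the 8 genes, no member passed between KO and WT tumors, where 9 of the 11671 entries (0.0771%) did. There, 5 members, Slc2a1, Hk1, Hk2, Pfkp and Aldoa, had an unadjusted p below 0.05, and so did 17.6% of all entries. The same 5 had all KO tumors above all WT tumors, which held for 13.8% of entries. Leaving out Hk2, which passed the filter only through the KO tumors, that is 4 of 7, and the median change of those 7 was 0.74 against 0.02 over all entries. With 1 fit of all 12 libraries, which lends the tumors the smaller spread of the other groups, Slc2a1, Hk1, Pfkp and Aldoa were called higher (adjusted p = 0.0110 to 0.0375, limma), 4 of the 7 genes other than Hk2, against 5.97% of entries. Hk2 had an adjusted p of 0.0433 there.

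Against KO liver, Slc2a1, Hk1, Pfkp and Aldoa had all 3 KO tumors higher, 4 of the 7 genes other than Hk2, against 21.3% of all entries, and 1 of them, Slc2a1, passed. Hk2 was higher in all 3 as well. Between WT tumor and WT liver the groups separated upward for Pfkl, Pfkp and Slc2a1, against 18.5% of entries. Between KO and WT liver they separated upward for Pfkp and Slc2a1, against 21.9%. Ldha separated downward in both of these comparisons, and the downward share over all entries was not worked out. In WT tumor against WT liver, 1 of the 8 genes was called higher (Slc2a1) and 1 lower (Ldha). Over all entries 8.01% and 8.96% were called so. No member passed the test of the interaction, as 2.08% of entries did. There Hk1, Pfkp, Pklr and Aldoa, 4 of the 7 genes other than Hk2, had an unadjusted p below 0.05, as did 22.3% of entries. Hk2, which passed the filter only through the KO tumors, was below 0.05 as well. KO tumor 2 was the highest of all 12 libraries for 6 of the 8 genes and the highest KO tumor for 7. KO tumors enter both the comparison with WT tumors and that with KO liver, so the 2 sets of values share those libraries.

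**Figure D3:**
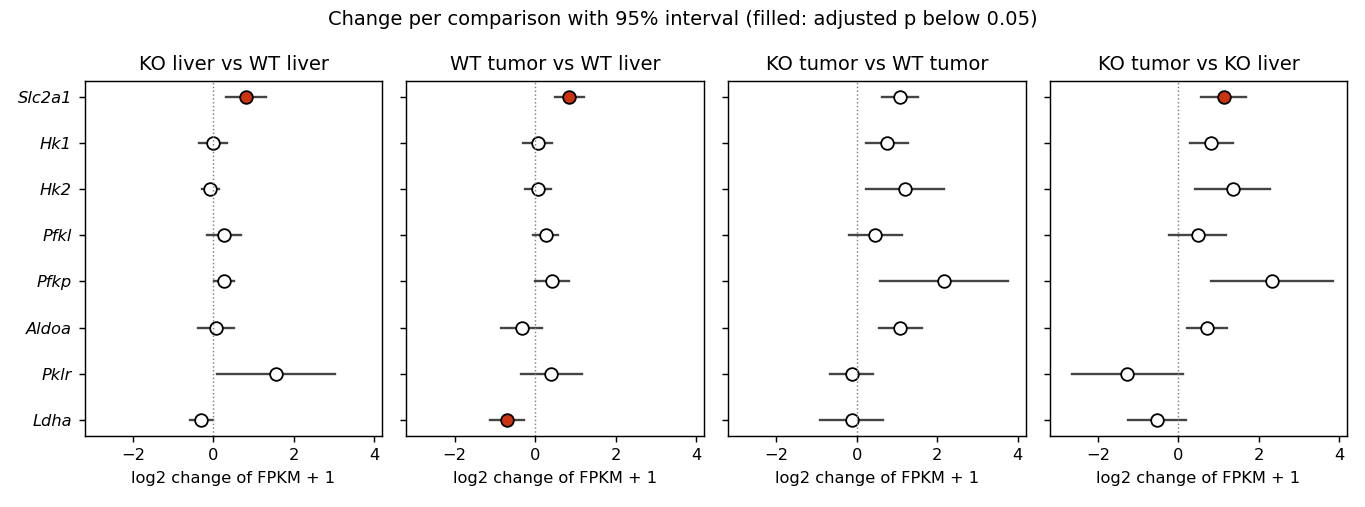
Change of each gene on the log2(FPKM + 1) scale with its 95% interval in 4 comparisons; filled points have an adjusted p below 0.05 (limma). Slc2a1 is filled in 3 panels and Ldha in 1, no gene is filled between KO and WT tumors, and the widest intervals there belong to Pfkp and Hk2.

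Some marker lists of other cell types summed to more in most or all KO tumors. The summed level of 7 macrophage markers was 290 to 463 FPKM in KO tumors, 89.0 to 298 in WT tumors, 134 to 208 in KO liver and 165 to 251 in WT liver. KO and WT tumors thus overlapped. By mean change, 6 of the 7 were higher in KO than in WT tumors and Clec4f was not. Cd14, a monocyte and macrophage receptor, was the only one called higher there (2.40 ± 0.23, adjusted p = 0.0306, limma). KO tumor 2 was the lowest of all 12 libraries for Clec4f and Cd5l (2.55 and 5.85 FPKM). KO tumor 3 was the highest for both (89.7 and 140 FPKM). Stellate cell and fibroblast markers (7 genes) summed to 129 to 192 FPKM in KO tumors and 40.8 to 113 in the other libraries. The 4 neutrophil markers summed to 20.9 to 53.0 in KO tumors and 8.42 to 9.68 in WT tumors. In KO liver they summed to 7.98 to 38.7 and in WT liver to 6.70 to 27.3, overlapping the KO tumors. Among the 4, Ly6g did not exceed 0.196 FPKM in any library. The 5 cholangiocyte markers differed in pattern. Spp1, which encodes osteopontin, was listed at 554, 3505 and 254 FPKM in KO tumors and 60.5 to 632 in WT tumors. Like Spp1, Sox9 (6.58, 11.5 and 2.83) and Epcam (1.20, 1.98 and 1.75) were highest in KO tumor 2 among KO tumors. Krt19 (1.04, 1.01 and 5.13) and Krt7 were highest in KO tumor 3 among KO tumors. Over all libraries Krt19 was highest in KO liver 2 (5.54). No marker of these 4 lists was at 0 in all libraries. In KO tumors against KO liver, 4 of 7 macrophage, 4 of 7 stellate cell and fibroblast and 2 of 5 cholangiocyte markers were called higher. None of the 3 tested neutrophil markers was. Over all entries 9.09% were called higher in that comparison. Cycling-cell markers summed to 5.19 to 34.6 FPKM in KO tumors and 8.41 to 11.8 in WT tumors, with the highest value in KO tumor 2. B and plasma cell markers summed to 6.22 to 18.6 FPKM in KO tumors and 22.7 to 56.5 in WT tumors, and thus were lower. Endothelial markers (41.9 to 55.7 and 35.0 to 59.2) and T and NK cell markers (2.39 to 16.1 and 2.33 to 11.3) overlapped between KO and WT tumors. Erythroid markers summed to 134 to 510 FPKM in KO tumors and 90.5 to 166 in WT tumors, and overlapped. Among them the globin entries were higher in every KO tumor, at 58.6 to 226 against 25.4 to 44.8 (Hba) and 67.7 to 249 against 36.2 to 53.7 (Hbb). Alas2 went the other way, at 7.12 to 34.6 in KO tumors and 27.2 to 67.6 in WT tumors. Skeletal muscle and adipocyte markers stayed below 1 FPKM in every library. The part of these cells in the higher Slc2a1, Hk1, Hk2, Pfkp, Aldoa and Pkm of KO tumors was not tested.

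By pattern over the 12 libraries, the entries most correlated with each member on the log2 scale were as follows, as a description in which KO tumor 2 and the group differences are shared by all points. Hk2 went with Gpnmb (r = 0.98), a glycoprotein of macrophages, and Slc11a1 (r = 0.97), a metal transporter of macrophage phagosomes, with Mogat2 between them. Hk1 went with Psap (r = 0.96), the lysosomal saposin precursor, and Plekho1. Pfkp went with Spats2l (r = 0.99), the matrix protease gene Mmp2 and Glipr2. Slc2a1 went with Arrdc1 (r = 0.97), Nme7 and Tmc6. Aldoa went with Psme1 (r = 0.96), an activator of the proteasome, Bsg, the chaperone of lactate transporters, and the integrin gene Itgb3. Ldha went with Cyp27a1 (r = 0.97), a bile acid enzyme, Decr1, a mitochondrial fatty acid enzyme, and Ptdss1. Pfkl went with Shkbp1 (r = 0.94), Ear2 and Coro1b, and Pklr with Anp32a (r = 0.95), Dhrs3 and Mn1.

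The rest of glycolysis, the single-form steps and enolases, had 8 of 11 listed genes tested. In KO liver 2 of the 8 rose over WT liver, as did 9.33% of all entries: Eno3, the muscle enolase, by 1.196 ± 0.18 on the log2 scale (adjusted p = 0.0121, limma) and Tpi1, triose phosphate isomerase, by 0.57 ± 0.13 (adjusted p = 0.0288, limma). None changed in the other comparisons. The median of the list was 0.32 between the livers and 0.19 between the tumors, where over all entries it was 0.03 and 0.02. Gapdh was listed at 0 to 1.34 FPKM in these tables and gives no reading of its step.

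Of 17 tested genes for the fate of lactate and pyruvate, 1 rose and 1 fell in KO liver, where 9.33% and 8.77% of all entries did: the mitochondrial pyruvate carrier subunit Mpc2 rose by 0.47 and the lactate transporter Slc16a1 fell by 0.78 on the log2 scale, on which all changes that follow are given. In WT tumors 6 fell and none rose against WT liver, where 8.96% of all entries fell and 8.01% rose. The lactate dehydrogenase of the D form, Ldhd, fell by 1.58, pyruvate carboxylase Pcx by 0.94, and the pyruvate dehydrogenase subunits Pdhx and Pdhb by 0.66 and 0.72. In KO tumors against KO liver 3 fell and 1 was called higher, where 5.17% and 9.09% of all entries were: the pyruvate dehydrogenase subunits Dlat, Pdhx and Pdhb fell by 1.11, 0.64 and 0.95. The higher gene was Pdk3, a kinase that switches that complex off, by 0.92; it reached 1 FPKM only in the 3 KO tumors and so entered the test only through them. None of the 17 passed between the tumor genotypes.

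Fructose 2,6-bisphosphate activates phosphofructokinase, and it is made and broken down by the enzymes of the Pfkfb family. All 5 listed genes, 4 of that family and Tigar, a phosphatase that lowers it, were tested. In WT tumors 2 fell and 1 was called higher against WT liver, where 8.96% and 8.01% of all entries were. Pfkfb3 and Pfkfb2 fell by 2.04 and 0.67. Pfkfb4 was higher by 0.87, but it reached 1 FPKM only in the 6 tumors and so entered the test only through the groups where it is high. In KO tumors 1 of the 5 fell and none rose against KO liver, where 5.17% and 9.09% of all entries did. Pfkfb1, the liver form, fell by 1.45.

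Of 18 regulators tested, 1 rose and 3 fell in KO liver, against 9.33% and 8.77% of all entries. The partner of the glucose-sensing factor, Mlx, rose by 0.66, and the hepatocyte factor Hnf4a fell by 0.89. Txnip, a restraint on glucose uptake, fell by 1.14, and Hif1a, the oxygen-regulated factor, fell by 0.71. In WT tumors 1 rose and 4 fell, against 8.01% and 8.96% of all entries, with Srebf1 up by 1.15, and Txnip, Hnf4a and Klf10 down (-1.37, -0.91 and -1.41). In KO tumors against KO liver 1 rose and 1 fell, against 9.09% and 5.17% of all entries. Myc rose by 1.89 and Mlxipl, the gene of the glucose-sensing factor ChREBP, fell by 1.24. Myc was listed at 5.87, 6.21 and 13.2 FPKM in KO tumors and 1.09 to 1.88 in KO liver, but at 16.8 in WT liver 1, above all other libraries.

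Of 15 genes of the hypoxia response tested, 2 rose and 2 fell in KO liver, counts near the 9.33% and 8.77% of all entries. Higd1a and Ankrd37 rose by 0.41 and 0.67, while P4ha2 and Pgm1 fell by 0.97 and 0.59. In WT tumors none rose and 2 fell, against 8.01% and 8.96% of all entries, P4ha2 by 0.80 and Hmox1 by 1.34. In KO tumors against KO liver 1 rose and none fell, against 9.09% and 5.17% of all entries. The gene that rose was Pgm1, by 1.09, and the median of the 15 was 0.20 against -0.02 over all entries. Genes of this list were matched by symbol alone, so whether the entry Pgm1 is the hypoxia-responsive gene was not checked. Between KO and WT tumors none passed, and the median was 0.12 against 0.02.

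**Figure D4:**
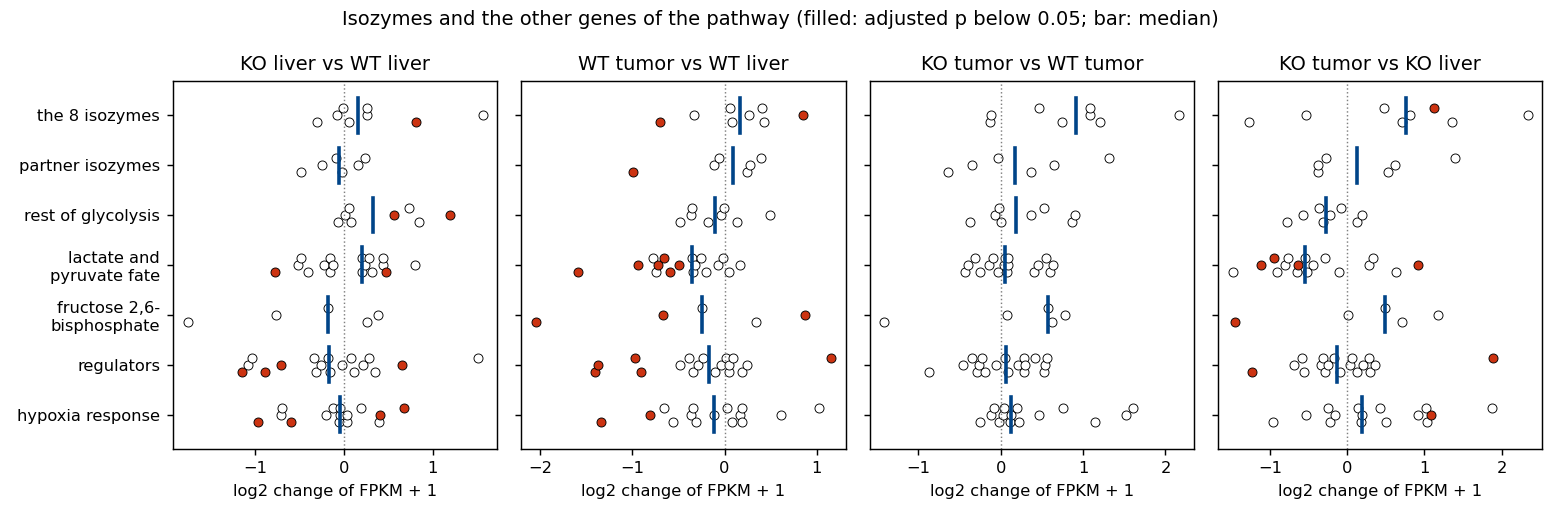
Change on the log2(FPKM + 1) scale of every tested gene of the 8 isozymes and 6 related lists in 4 comparisons; filled points have an adjusted p below 0.05 (limma) and the bar is the median. Between KO and WT tumors no gene of these lists is filled, and the median of the isozymes lies at 0.91 with Hk2 included.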

How the data were processed

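RNA from 12 mouse samples (3 in each of 4 groups) was sequenced from poly(A) libraries. The authors' deposited values are FPKM per gene entry. Per the submitters' processing notes, TopHat2 2.1.1, Cufflinks 2.2.1 and mm10 were used; settings and gene annotation were not given in the sources used here, and read depth is unknown, since low values did not fall on whole-read steps. Libraries were unstranded per the labels' protocols, so overlapping genes on opposite strands cannot be told apart.

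Each comparison was fitted on its own 6 libraries, and the interaction on all 12, with limma 3.58.1 (R 4.3.3) on log2(FPKM + 1), with a variance trend, over entries reaching 1 FPKM in at least 3 of the 12 libraries, and Benjamini-Hochberg adjustment over 11671 entries. The fit was tested on simulated data. Shares are percent of summed FPKM, given without a test. Where a name recurred, the entry with the highest mean FPKM was used. Gene positions are from GENCODE vM21, promoters from RefSeq (GRCm38.p6; all 8 genes matched).

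The members and the gene lists were chosen with earlier results of these data known. All 8 members and 8 partner isozymes are named; a few other listed or correlated genes are not reported here and were left out of the list counts. Of each other list, up to 4 called genes with the smallest adjusted p are named, and for each member the 3 most correlated entries. The markers Cd14, Clec4f and Cd5l and the values by library of Srebf1, Eno1 and Myc were named after their values were seen. Labels do not say outright that each library is a separate animal, so the p-values cover only spread among these libraries, which may be technical. Alternatives covered the pseudocount, the filter, scaling, shared spread, a replicate block and leaving out each library. Of these, 2, removal of a length trend and a fit without KO tumor 2, were chosen after seeing the data.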

Additional observations from a re-analysis of the deposited data

Results flagged for a closer look

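In 1 gene around the isozymes the knockout effect differed between tumor and liver by a test of the difference itself (limma, all 12 libraries). It was 1 of the 5 tested fructose 2,6-bisphosphate genes, and no gene of the other pathway lists passed. Over all entries 243 (2.08%) passed that test, and 7 to 1368 did when 1 library was left out. For Pfkfb2, whose enzyme makes and breaks down the activator of phosphofructokinase, the knockout effect in tumor minus that in liver was 1.38 ± 0.29 on the log2 scale (adjusted p = 0.0422). It was listed at 8.70, 7.15 and 10.4 FPKM in WT liver, 6.13, 5.54 and 2.98 in KO liver, 5.03, 5.31 and 4.92 in WT tumors and 8.31, 9.33 and 7.48 in KO tumors, so every KO liver lay below every WT liver and every KO tumor above every WT tumor. Neither comparison passed on its own (-0.76, adjusted p = 0.0694, and 0.62, adjusted p = 0.118).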

How the results depend on the processing

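Of 681 values of the 8 genes under all alternatives, 619 stayed on their side of the threshold, 37 newly passed it and 25 no longer did. Of the 681, 16 changed sign, none of them called. The number of isozymes called, KO against WT liver, was 1, and 0 without the filter, with a common FPKM sum and with the replicate block. Between KO and WT tumors it was 0, and 5 (Hk2 included) in 1 fit of all 12 libraries and 4 in that fit without KO tumor 2. Between WT tumor and liver it was 2, and 1 (Slc2a1, with Ldha lost) without the filter, with a common sum, with quantile normalization, in the 12-library fit and with the replicate block. Between KO tumor and liver it was 1. There it became 0 without the filter, 4 with a pseudocount of 0.1, 5 with a common sum and in the 12-library fit, 4 in that fit without KO tumor 2, and 2 with median-of-ratios scaling, quantile normalization, the replicate block or the length trend removed. The interaction, 0, became 1 (Aldoa) with a common sum, quantile normalization or the length trend removed. Leaving out 1 library gave 0 to 1 in KO against WT liver, 0 to 1 between the tumors, 0 to 3 in WT tumor against liver, 0 to 3 in KO tumor against liver and 0 to 1 for the interaction. The cause of these shifts was not tested. The common sum moved the median change of all entries to 0.34 (KO tumor against liver), 0.21 (WT tumor against liver), 0.12 (between tumors) and 0.13 (interaction). Counts over all entries ran, under the alternatives and then under leaving out 1 library, from 153 to 2172 and 240 to 1964 (KO against WT liver, 2113), 0 to 1017 and 0 to 266 (tumors, 9), 1105 to 2045 and 454 to 2134 (WT tumor against liver, 1981), 543 to 3340 and 129 to 2981 (KO tumor against liver, 1664), and 56 to 280 and 7 to 1368 (interaction, 243). A minimum mean of 5 FPKM left Hk1, Hk2 and Pfkp untested. Hk2, which passed the main filter only through the KO tumors, is counted above wherever it was called. Deviations of same-numbered libraries from their group means correlated at -0.28 to 0.35, with 0.01 to 0.35 between KO and WT tumors. With 3 libraries per group this cannot settle whether the numbers pair the samples. With FPKM alone, the counting error of low genes such as Hk2 cannot be given.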
